A study of Mus musculus with 6 samples.

Results

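The study followed up 3 mature miRNAs, mmu-miR-8114, mmu-miR-409-3p and mmu-miR-7688-5p (mmu marks the mouse), as candidates acting on Aqp2, the gene of the water channel aquaporin-2. They were taken by name from a table of 1081 mature miRNAs measured by small RNA sequencing, and all 3 were among the 461 entries with a mean of at least 5 normalized reads, which were tested. The study chose them on the comparison of these same samples. Their levels are therefore given as a description, with no test.

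The samples were inner medulla, the innermost zone of the kidney, from mice at 1 month of age. There were 3 control libraries and 3 libraries of the genotype written DicerAQP2Cre+. That name denotes loss of Dicer through a Cre recombinase tied to the Aqp2 gene, and the labels give no further allele for either genotype. The table heads its DicerAQP2Cre+ columns CK01 to CK03, taken here to mean conditional knockout replicates 1 to 3; all directions depend on this reading of the headers. Small RNA libraries measure neither the Dicer1 nor the Aqp2 transcript, so neither the deletion nor Aqp2 itself could be checked. Libraries held 2934851 to 7614853 reads assigned to miRNAs, the fewest in DicerAQP2Cre+ replicate 2. Values are reads divided by the authors' size factor for each library. The tissue is a mixture of cells, so fewer cells of a type and less RNA per cell cannot be told apart.

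Dicer, an RNase III enzyme, cleaves precursor hairpins to release mature miRNA duplexes. A mature miRNA guides Argonaute proteins mostly through its seed, the bases near its 5′ end, which pair with complementary letters in target transcripts and lower their translation or stability. Aquaporin-2 lets water cross the apical membrane of collecting duct principal cells, and vasopressin raises both its amount at that membrane and its transcription.

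The mature sequences are shown first because the seed mostly decides which transcripts a miRNA can pair with. They come from RefSeq (GRCm38.p6) and were matched by name, as were 916 of the 1081 entries, and the seed, bases 2 to 8 from the 5′ end, is in capitals.
miR-7688-5p: uAGCUGGGcaugaucugaugagc
miR-8114: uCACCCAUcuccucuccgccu
miR-409-3p: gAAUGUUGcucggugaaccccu
The 3 candidates did not share a seed with each other. Each seed belonged to 1 mature name in RefSeq, so no other table entry with a sequence carried it. Over bases 2 to 7 alone, miR-7688-5p matched miR-7085-3p and miR-409-3p matched miR-33-3p. Both of those were below the filter, with means of 3.03 and 1.43 normalized reads in controls and 3.12 and 1.48 in DicerAQP2Cre+ libraries. The G and C content was 52.2% for miR-7688-5p, 61.9% for miR-8114 and 54.5% for miR-409-3p, against a median of 52.2% over 387 tested entries with a sequence.

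The 3 hairpins lie on different chromosomes, all on the plus strand of GRCm38.p6. Mir7688 is at chr10:93433107-93433162 and lies between genes, since the GENCODE annotation of the same build held no gene within 10 kb of it and the nearest, Lta4h, was 20249 bases away. Mir8114 is at chr1:153899926-153900036. Its mature sequence, at chr1:153899989-153900009, lies within exon 1 of Glul on the same strand, in the 5′ UTR. Glul encodes glutamine synthetase, which makes glutamine from glutamate and ammonium. An exon of Teddm2 covers the same bases on the opposite strand. Counting per mature miRNA cannot tell fragments of Glul RNA from miR-8114, and whether the counting used strand is not given in the sources used here. Mir409 is at chr12:109743158-109743236, inside Mirg, the long noncoding host RNA of many miRNAs of the imprinted Dlk1-Dio3 region, with no annotated exon over the mature sequence.

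The hairpins of miR-7688-5p and miR-409-3p show the member on opposite arms, given here in capitals.
Mir7688: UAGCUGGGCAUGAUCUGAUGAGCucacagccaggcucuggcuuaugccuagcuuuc
Mir409: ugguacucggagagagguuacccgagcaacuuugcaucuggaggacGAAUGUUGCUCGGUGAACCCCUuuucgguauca
miR-7688-5p starts at the first base of its 56-base hairpin, and miR-409-3p takes bases 47 to 68 of 79. The predicted folding energy was -0.455 kcal/mol per base for Mir7688 and -0.475 for Mir409, lower than that of 71.3% and 78.0% of 1005 RefSeq hairpins. Mir8114, at 111 bases, had -0.345 kcal/mol per base, lower than 26.6% of them. In these predicted folds 18 of 23 bases of miR-7688-5p, 18 of 22 of miR-409-3p and 15 of 21 of miR-8114 were paired. The other arms, miR-7688-3p and miR-409-5p, were not analysed here.

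miR-7688-5p was the rarest of the 3 candidates. It stood at 23.1, 18.1 and 17.4 normalized reads in control replicates 1 to 3, and at 57.7, 52.9 and 51.1 in DicerAQP2Cre+ replicates 1 to 3. Every DicerAQP2Cre+ library was above every control, and the lowest of them was 2.21 times the highest control. Means were 19.5 ± 3.09 and 53.9 ± 3.42 (SD, n = 3 each), a ratio of 2.76. These values rest on few reads, 71 over the controls and 155 over the DicerAQP2Cre+ libraries. The SD between DicerAQP2Cre+ mice, 3.42, was smaller than the 8.14 that counting alone gives at these depths, and in controls 3.09 compared with 4.03. The close agreement of these libraries is thus tighter than their depth can resolve. In DicerAQP2Cre+ replicate 2, the shallowest library, 27 reads gave a 95% exact Poisson interval from 34.9 to 77.0 normalized reads. Such intervals cover counting error only, since PCR copies are not independent molecules.

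miR-8114 was the most abundant of the 3. Its control libraries held 93.8, 69.2 and 90.0 normalized reads. The DicerAQP2Cre+ libraries held 241, 257 and 164. The genotypes did not overlap, and DicerAQP2Cre+ replicate 3 was the lowest of its group. Its interval, 140 to 192, lay below those of replicate 1 (216 to 269) and replicate 2 (215 to 305). Means were 84.3 ± 13.3 and 221 ± 49.4 (SD, n = 3 each), a ratio of 2.62, from 303 and 618 reads.

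miR-409-3p was even between controls, at 44.6, 43.2 and 49.4 normalized reads. In DicerAQP2Cre+ replicates 1 to 3 it stood at 104, 99.9 and 158. Here too the genotypes did not overlap, but DicerAQP2Cre+ replicate 3 was the highest of its group. Its interval of 134 to 185 lay above the 87.1 to 122 of replicate 1 and the 74.4 to 131 of replicate 2. Means were 45.7 ± 3.21 and 121 ± 32.7 (SD, n = 3 each), a ratio of 2.64, from 164 and 346 reads.

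**Figure D1:**
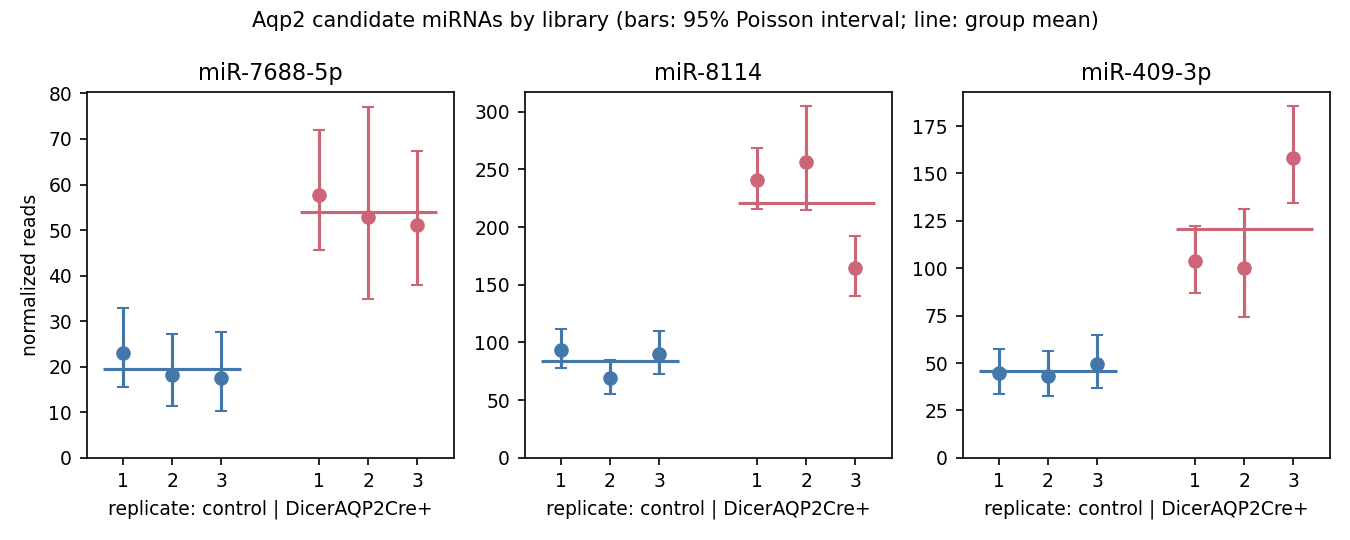
Normalized reads of each of the 3 candidates (vertical axes, each from 0) in each library, with controls in blue and DicerAQP2Cre+ in red; points are libraries, bars are 95% exact Poisson intervals and horizontal lines are group means. All 3 DicerAQP2Cre+ libraries lie above all 3 controls in each panel, and replicate 3 is the lowest DicerAQP2Cre+ library for miR-8114 (164) and the highest for miR-409-3p (158).

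In the fit over all entries (limma on log2 of the value plus 1), the log2 fold change was 1.43 ± 0.28 (SE) for miR-7688-5p, 1.36 ± 0.27 for miR-8114 and 1.35 ± 0.27 for miR-409-3p. These 3 estimates differ from one another by less than their standard errors. All 3 candidates were among the 16 entries called higher at a Benjamini-Hochberg adjusted p under 0.05, which are 3.47% of the entries tested. The 23 called lower are 4.99%. With libraries set to equal totals the calls were 14 higher and 48 lower. All 3 candidates also stood above every control in every DicerAQP2Cre+ library, which 15.6% of tested entries did. Since they were chosen on this contrast, nothing is read from those counts. Among the 16 entries called higher they came 7th, 8th and 9th by fold change, below miR-1247-5p (log2 fold change 2.88 ± 0.63) and miR-214-3p (2.14 ± 0.41) at the top. By mean level they came 14th, 10th and 12th of those 16, and 279th, 187th and 224th of all 1081 entries.

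**Figure D2:**
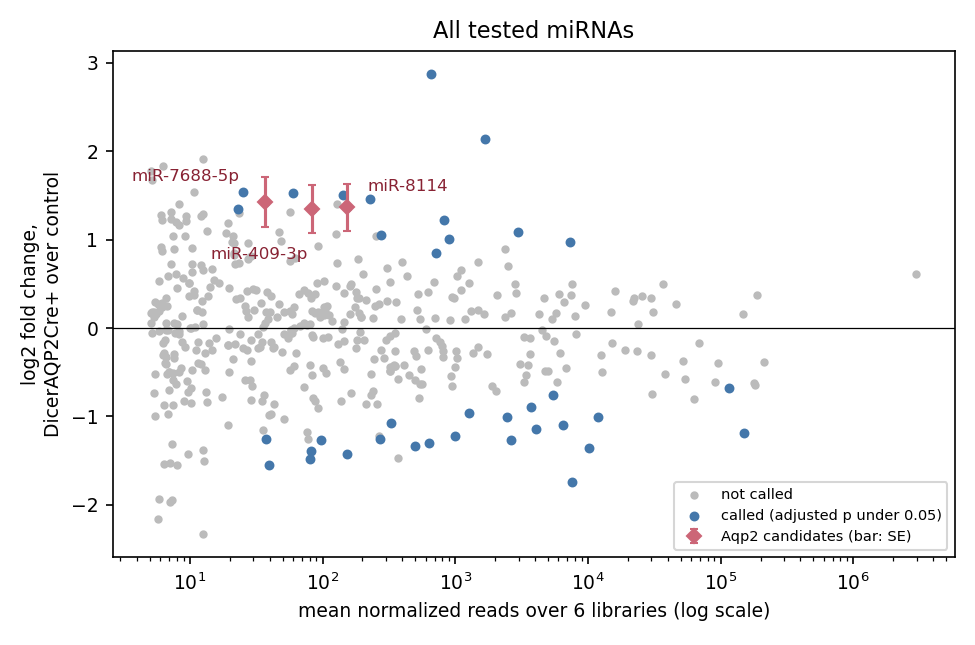
Log2 fold change of DicerAQP2Cre+ over control (vertical axis) against mean normalized reads over 6 libraries (horizontal axis, log scale) for 461 tested entries, with called entries in blue and the 3 candidates as red diamonds with SE bars. The candidates sit close together at log2 fold changes of 1.35 to 1.43, at low to middling abundance.

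Setting libraries to equal totals lowered the fold changes to 1.22 for miR-7688-5p, 1.15 for miR-8114 and 1.14 for miR-409-3p. That scaling moved the median of all tested entries from -0.01 to -0.21. Relative to the median, the candidates stood at 1.44, 1.38 and 1.36 with the deposited size factors and at 1.43, 1.36 and 1.35 with equal totals. Without DicerAQP2Cre+ replicate 3, the library in which miR-8114 and miR-409-3p part, the fold changes were 1.47, 1.56 and 1.14 in the same order.

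**Figure D3:**
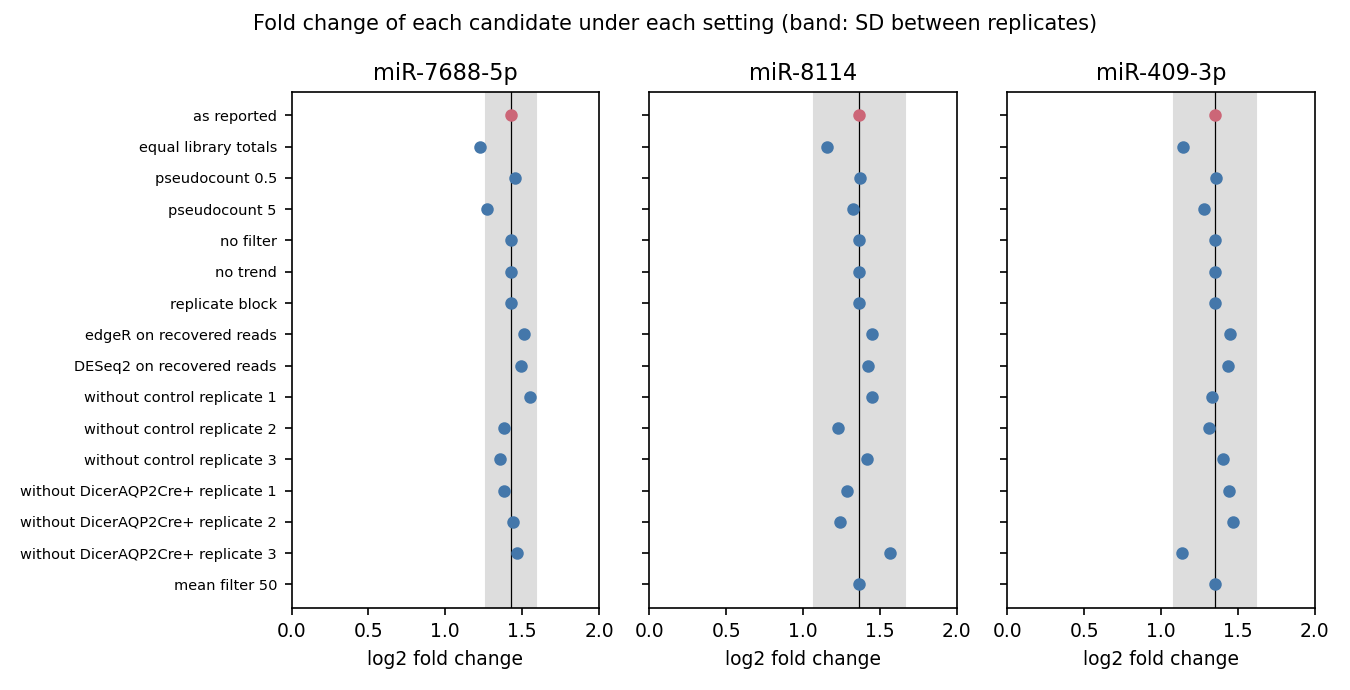
Log2 fold change of each candidate (horizontal axis) under each processing setting (vertical axis), with the reported value in red and the gray band showing 1 SD between replicates on the log2 scale around it. Every setting stays above 0, though the lack of overlap between genotypes fixed this for the left-out libraries and the pseudocounts. Points with no filter, a mean filter of 50, no trend or a replicate block equal the reported value by construction. The 1 point outside its band is miR-7688-5p with equal library totals (1.22), where the band is narrower than counting alone gives. No point is drawn for miR-7688-5p at a mean filter of 50, which it does not pass.

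The proportions of the candidates to each other varied by library. The ratio of miR-8114 to miR-7688-5p, in normalized reads, ran from 3.83 to 5.17 in controls and from 3.22 to 4.85 in DicerAQP2Cre+ libraries. The ratio of miR-409-3p to miR-7688-5p was 1.93, 2.39 and 2.83 in the controls and 1.79, 1.89 and 3.10 in the DicerAQP2Cre+ libraries, the highest in replicate 3. The ratio of miR-8114 to miR-409-3p was 2.10, 1.60 and 1.82 in the controls. In the DicerAQP2Cre+ libraries it was 2.33, 2.57 and 1.04, the lowest in replicate 3. Across the 6 libraries on the log2 scale miR-7688-5p and miR-8114 had a Pearson correlation of 0.955, miR-7688-5p and miR-409-3p 0.916, and miR-8114 and miR-409-3p 0.823. The genotype difference on which all 3 were chosen makes up most of these values. After each genotype's mean was removed, the correlations in the same order were 0.463, -0.350 and -0.712. Those with miR-7688-5p rest on differences between mice that its depth does not resolve. All of these correlations describe 6 libraries of the same mice and have no test.

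The entries whose level followed each candidate most closely differed between the candidates. For miR-7688-5p they were miR-341-3p (Pearson correlation 0.993 over the 6 libraries), miR-676-3p (0.973) and miR-674-5p (0.972), all 3 called higher. miR-341-3p, another miRNA of the Dlk1-Dio3 region, had 15.4, 12.6 and 9.68 normalized reads in controls and 40.7, 35.3 and 37.8 in DicerAQP2Cre+ libraries. At this depth, like miR-7688-5p, it does not resolve differences between the mice of a genotype. For miR-8114 they were miR-132-3p (0.986) and miR-212-3p (0.977), made from neighbouring hairpins and induced by the transcription factor CREB in neurons, and miR-34c-5p (0.966). miR-132-3p had 1394, 1303 and 775 normalized reads in DicerAQP2Cre+ replicates 1 to 3, against 532, 432 and 486 in controls. For miR-409-3p they were miR-3102-5p.2-5p (0.972), miR-204-5p (0.936) and miR-673-3p (0.929). miR-204-5p, a miRNA of kidney epithelium, had 465, 462 and 646 normalized reads in DicerAQP2Cre+ libraries and 378, 347 and 312 in controls. It was not called (log2 fold change 0.59 ± 0.23, limma adjusted p = 0.130). These 9 entries were picked for their likeness, so that their levels follow the candidate's is fixed by the choice, and the genotype difference enters each correlation. With each genotype's mean removed the correlations were 0.864 for miR-341-3p, 0.929 for miR-132-3p and 0.771 for miR-204-5p, and 0.601 to 0.935 over all 9. These values too are partly fixed by the choice. Those of miR-341-3p, miR-676-3p and miR-674-5p rest on differences in miR-7688-5p that its depth does not resolve. For miR-341-3p its own depth does not resolve them either.

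miR-409-3p could be set beside its neighbours, the miRNAs of the cluster from miR-379 to miR-410 in the Dlk1-Dio3 region. Of 16 other tested entries of that cluster, 1 was called higher and 0 lower (8 and 0 at an unadjusted p under 0.05 in limma, and 1 and 0 called by edgeR and by DESeq2). Over all 461 tested entries 60 were higher and 69 lower at an unadjusted p under 0.05. With equal library totals 4 of the 16, and 34 of the 461, were higher at that level, and the median of the 16 was 0.63. The called entry was miR-485-3p, at 1.53 ± 0.34 on the log2 scale by limma (adjusted p = 0.0172). It had 34.6, 18.9 and 38.7 normalized reads in controls and 115, 70.5 and 80.7 in DicerAQP2Cre+ libraries. Of the 16, 15 had a log2 fold change above 0, with a median of 0.83 against -0.01 for all entries tested. The 8 of the 16 that lie inside the annotated Mirg RNA held the called entry. Of these 8, 7 were above 0, miR-410-3p among them, also with a median of 0.83. Without DicerAQP2Cre+ replicate 3 the median of the 16 was 0.70. The call was lost without control replicate 2, without control replicate 3 and without DicerAQP2Cre+ replicate 1, where limma called 0 (3, 6 and 4 at an unadjusted p under 0.05), and in the fit with no trend. Without those 3 libraries the medians were 0.71, 0.83 and 0.73. Without control replicate 2 or control replicate 3 limma called 0 of all 461 entries, so the loss there is not particular to the cluster.

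An annotated miRNA gene on the opposite strand, Gm24321, overlaps the Mir409 hairpin. On the same strand Mir412 (53 bases away, not analysed here), Mir369 (182) and Mir410 (479) follow Mir409 on one side, and Mir541 (660) is the nearest on the other. miR-541-5p, the most abundant entry of the cluster, had 965, 656 and 935 normalized reads in controls and 1271, 999 and 1811 in DicerAQP2Cre+ libraries. The genotypes did not overlap, but the lowest DicerAQP2Cre+ library was close to the highest control, and the entry was not called (log2 fold change 0.65 ± 0.27, limma adjusted p = 0.140). miR-411-5p, the next in abundance, overlapped between genotypes (0.24 ± 0.35, adjusted p = 0.713). miR-410-3p, from a hairpin 479 bases from Mir409, had 6.15, 1.57 and 6.77 normalized reads in controls and 11.1, 11.8 and 7.15 in DicerAQP2Cre+ libraries (1.05 ± 0.54, adjusted p = 0.234). Summed over all 46 entries of the cluster other than miR-409-3p, the level was 1277, 935 and 1356 in controls and 1837, 1474 and 2516 in DicerAQP2Cre+ libraries. miR-541-5p made up 67.8% to 75.6% of that sum, so the sum mostly repeats that entry. The replicates did not order the cluster entries alike. Of the 16 tested, 7 were highest in DicerAQP2Cre+ replicate 3, as miR-409-3p was, 6 in replicate 1 and 3 in replicate 2. The called entry, miR-485-3p, was highest in replicate 1, and miR-410-3p was lowest in replicate 3.

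**Figure D4:**
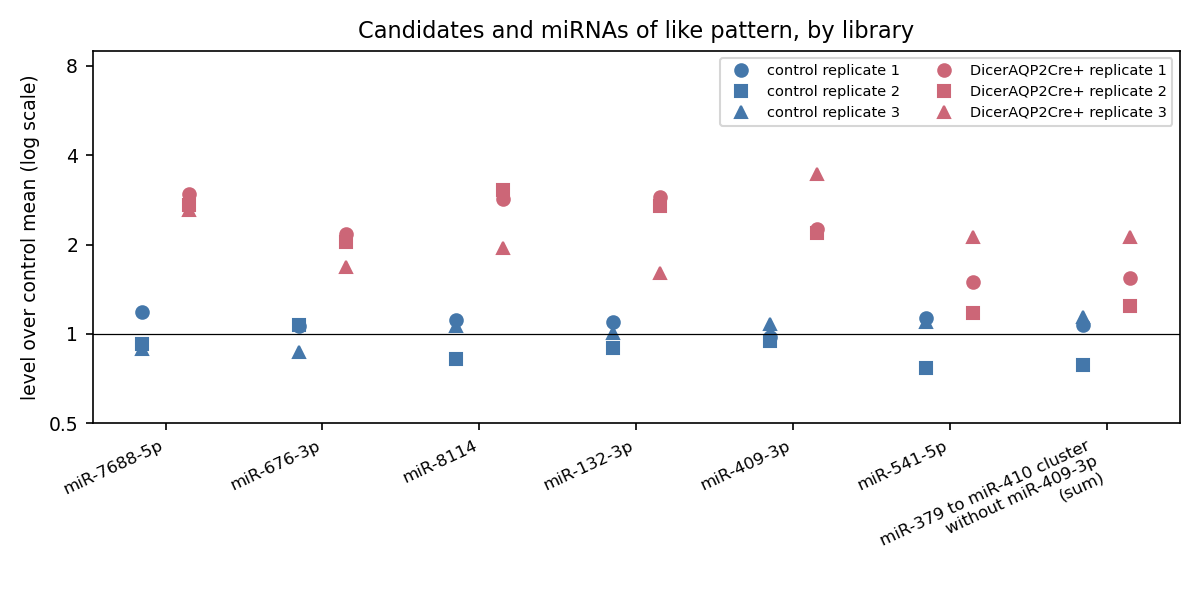
Level over the control mean (vertical axis, log scale) in each library for the 3 candidates, for miR-676-3p and miR-132-3p, and for miR-541-5p and the cluster around miR-409-3p, with controls in blue, DicerAQP2Cre+ in red and the replicate shown by the marker's shape. DicerAQP2Cre+ replicate 3 (red triangles) is the lowest of its group for miR-8114 (1.95 times the control mean), miR-7688-5p (2.62), miR-132-3p (1.60) and miR-676-3p (1.68), and the highest for miR-409-3p (3.46), miR-541-5p (2.13) and the cluster sum (2.12). For miR-7688-5p this order is not resolved, since the Poisson interval of replicate 3 (37.9 to 67.3 normalized reads) overlaps those of replicate 1 (45.6 to 72.0) and replicate 2 (34.9 to 77.0).

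miR-7688 and miR-8114 carry high miRBase numbers, given to hairpins registered late, many of them from deep sequencing. The table held 373 entries numbered 5000 or above, of which 62 passed the filter. Among them miR-7688-5p and miR-8114 were called higher. Limma, edgeR and DESeq2 each called 0 of the other 60 in either direction. Before adjustment limma put 4 of them higher and 3 lower, against 60 and 69 of all 461. Since limma called only 3.47% of the 461 higher and 4.99% lower, few calls would fall among 60 entries. The group is also low in abundance: 6 of the 60 passed a mean filter of 50, against 259 of the 461. The 2 candidates were chosen on this contrast, so the 0 calls do not set them apart from the group. The median log2 fold change of the 60 was 0.05, against -0.01 over all entries. Other settings called at most 1 of the 60 higher, and at most 3 lower, the 3 without DicerAQP2Cre+ replicate 3. The position of miR-8114 in an exon was shared by other entries, a comparison made after its values were seen. Of the 387 tested entries with a sequence, 55 lie within a same-strand exon of a protein-coding gene, miR-8114 among them. Of the other 54, 1 was called higher, miR-3102-5p.2-5p, and 0 lower, with a median of 0.05.

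Markers of the cells that the inner medulla could hold were read beside the candidates. The 5 miR-200 family 3p arms, which mark collecting duct and other kidney epithelium, summed to 16704 to 17708 normalized reads in controls and 7133 to 10776 in DicerAQP2Cre+ libraries, and all 5 were called lower. The 5 stromal entries listed summed to 23291 to 24539 and 27621 to 39941, with 2 of 5 called higher, miR-214-3p and miR-145a-5p. Both stromal calls were lost without control replicate 2, control replicate 3 or DicerAQP2Cre+ replicate 2 (3, 3 and 2 higher at an unadjusted p under 0.05 in limma), and in the fit with no trend (3). miR-214-3p alone was called without DicerAQP2Cre+ replicate 1, and 4 stromal entries were called without DicerAQP2Cre+ replicate 3. Without control replicate 2 or control replicate 3, limma called 0 of all 461 entries, so the 5 epithelial calls were lost there too. So were the calls in the lists that follow. How the epithelial calls fared in the other fits is not given here. Counting the listed entries that the table held, the sums overlapped between genotypes for 5 of 5 leukocyte entries (12703 to 35681 and 16034 to 38510), 2 of 2 endothelial (961 to 1229 and 830 to 1245), 4 of 4 erythroid (84625 to 147223 and 66039 to 98718) and 2 of 3 striated muscle entries (32.9 to 48.7 and 26.6 to 47.0). Nearly all of the leukocyte sum was miR-150-5p, and nearly all of the erythroid sum was miR-486a-5p, counted together with miR-486b-5p. Of 4 tested leukocyte entries 3 had a log2 fold change above 0, and 0 were called. The remaining one, miR-155-5p, was lower without overlap, at 468 to 551 in controls and 112 to 407 in DicerAQP2Cre+ libraries (-1.47 ± 0.41, limma adjusted p = 0.0512). The summed level did not overlap, and was lower in DicerAQP2Cre+ libraries, for 3 of 3 cortical tubule entries (1277 to 1340 and 627 to 1131) and 3 of 4 neural entries (832 to 1027 and 366 to 451). Of each list 2 entries were tested and 1 was called lower. In the tubule list that was miR-194-5p, while miR-192-5p, most of the sum, overlapped between genotypes (limma adjusted p = 0.235). In the neural list it was miR-9-5p, nearly all of the sum, while miR-128-3p stood at -0.07 ± 0.29 on the log2 scale (adjusted p by limma = 0.883) and miR-124-3p was at 0 in 5 of 6 libraries. Among the DicerAQP2Cre+ libraries replicate 3, where miR-409-3p was highest and miR-8114 lowest, had the highest sum for 5 of the 8 marker lists (epithelium, cortical tubule, endothelial, leukocyte and erythroid) and the lowest for 1 (stromal). In each of those 5 lists the most abundant entry was also highest in replicate 3. Other entries of the same lists went the other way: miR-141-3p, miR-194-5p, miR-126a-5p and miR-223-3p were lowest in replicate 3. These sums therefore do not give the amount of a cell type in replicate 3. The part of the marked cells in the levels of the candidates was not tested.

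The candidates differed in whether their seed had a match in Aqp2. The search used the reverse complement of the 7 seed bases, on the transcript's own strand: CCCAGCT for miR-7688-5p, ATGGGTG for miR-8114 and CAACATT for miR-409-3p. In the GENCODE Aqp2 transcript, of 1419 bases, the letters for miR-7688-5p occurred 2 times, and those for miR-8114 and miR-409-3p 0 times. The first match, at bases 373 to 379, lies in the coding sequence (bases 99 to 911), and the second, at bases 1091 to 1097, in the 3′ UTR. Both are shown with the bases before them and the base after them, with the match in capitals.
Aqp2 bases 351 to 380: cgagctgccttctacgtggctgCCCAGCTg
Aqp2 bases 1069 to 1098: acctcggccccgaagccctggcCCCAGCTa
The second match is followed by A, the base that Argonaute favours opposite the first base of a miRNA, and the first is followed by G. Among 1418 protein-coding transcripts within 10% of the length of Aqp2 (the longest of each gene), CCCAGCT occurred in 19.9%, at least 2 times in 3.10%, and followed by A in 2.75%. ATGGGTG occurred in 8.18% of them and CAACATT in 8.25%. A match describes letters only, and these libraries do not measure Aqp2. Shorter matches were not searched, so the lack of a match to the 7 seed bases does not show that a miRNA cannot act on Aqp2.

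**Figure D5:**
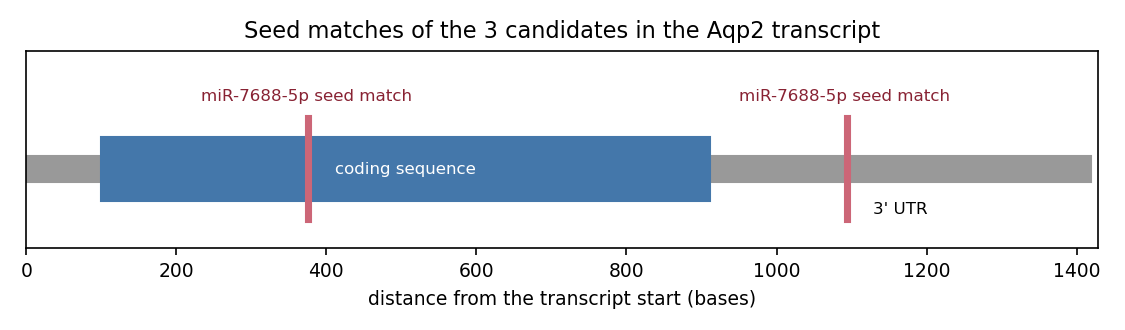
Map of the 1419-base Aqp2 transcript (horizontal axis, bases from its start) with the coding sequence in blue, untranslated parts in gray and matches to the seed of miR-7688-5p in red. The matches lie at bases 373 and 1091; the letters for miR-8114 and miR-409-3p do not occur in it.

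miR-32-5p, described elsewhere as acting on Aqp2, offered a further point of reference. It had 0.769, 0.786 and 1.94 normalized reads in controls and 0, 1.96 and 0 in DicerAQP2Cre+ libraries, that is, at most 2 reads in any library. For a count of 0 a fixed floor of 3 reads was taken, not the Poisson interval used above. That floor is 2.22 normalized reads in DicerAQP2Cre+ replicate 1 and 3.06 in replicate 3, so no difference could be detected at this depth. Each candidate, including miR-7688-5p with its lowest library of 18 reads, was thus well above the level of miR-32-5p. miR-137-3p, which has also been described as acting on Aqp2, was not analysed here.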

How the data were processed

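Per the labels' protocols, libraries came from a TruSeq small-RNA protocol on RNeasy Micro Kit extracts. The deposited signal is the reads of a mature miRNA after division by a size factor that the authors applied to the whole library. DESeq2, FastQC 0.11.3 and the build mm9 appear in the submitters' processing notes. The aligner, counter and miRNA release were not given in the sources used here. Values were turned back into whole reads: 100% came out whole within 0.01 read. Sequences and genes came by name from RefSeq and GENCODE M21 of GRCm38, so no position was converted between builds.

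limma 3.58.1 (R 4.3.3, two-sided, mean-variance trend) was fitted to log2(value + 1) over 6 libraries and 461 entries. This scale understates the change of low entries. edgeR 4.0.16 and DESeq2 1.42.0 were run on the recovered reads, and all 3 fits were tested on simulated data. Hairpins were folded with RNAfold 2.7.2. Per the design text the samples are separate mice. Libraries of a genotype differed by more than sampling noise. Beside the candidates, the named entries are partial seed partners, miRNAs described as acting on Aqp2, the 3 entries of highest correlation with each candidate, and the most abundant entries of the miR-379 to miR-410 cluster and neighbours of Mir409. Marker lists are given as sums and counts. Others named were chosen after their values were seen. The members and lists were chosen with earlier results of these data known.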

Additional observations from a re-analysis of the deposited data

How the results depend on the processing

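Each candidate stayed above 0 in every alternative that tested it: between 1.22 and 1.55 on the log2 scale for miR-7688-5p (14 alternatives), 1.15 and 1.56 for miR-8114 (15) and 1.14 and 1.47 for miR-409-3p (15). The candidates were chosen on this contrast and did not overlap between genotypes. Leaving out a library or changing the pseudocount therefore could not bring them below 0, and only the sizes are informative. With equal library totals miR-7688-5p moved from 1.43 to 1.22, by more than its SD between replicates of 0.16 on the log2 scale. That SD is narrower than counting alone gives, so this does not mark miR-7688-5p as more sensitive. In the same fit miR-8114 moved from 1.36 to 1.15 and miR-409-3p from 1.35 to 1.14, within wider SDs of 0.30 and 0.27. The whole distribution moved with them. Leaving out 1 library at a time gave 1.36 to 1.55 for miR-7688-5p, 1.23 to 1.56 for miR-8114 and 1.14 to 1.47 for miR-409-3p. Against 16 higher and 23 lower entries over the whole table, the calls were 14 and 48 with equal totals, 7 and 11 without the trend, and 28 and 29 by DESeq2. Leaving out 1 library gave 0 to 43 higher and 0 to 62 lower, with fewer samples in each fit. The 43 and 62 came without DicerAQP2Cre+ replicate 3. Limma called 0 and 0 without control replicate 2 (40 higher and 43 lower at an unadjusted p under 0.05) and without control replicate 3 (46 and 50). Leaving out control replicate 1 gave 13 of each. In the DicerAQP2Cre+ group, leaving out replicate 1 gave 10 higher and 31 lower entries, and leaving out replicate 2 gave 5 and 10. With a replicate block the calls were 14 and 18. The candidates' fold changes are the same by construction there, and also with no filter, a mean filter of 50 or no trend. Libraries with the same number did not visibly deviate together (correlations of -0.06, 0.01 and 0.06 over entries), and not every library correlated best with its own number. The numbers were therefore not used as a pairing in the reported fit, though correlations this small cannot exclude one. The cause of the other shifts was not tested. Reads limit miR-7688-5p most, with 18 to 78 per library.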

Other observations

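Seed matches were also counted in 9 genes of water transport and collecting duct transcription, none of which these libraries measure. In the longest transcript of each, CCCAGCT, the match for miR-7688-5p, occurred in Aqp2, Avpr2 (the vasopressin receptor of the collecting duct), and Creb1, which is 3 of 9 against 37.0% of 21877 genes. ATGGGTG, for miR-8114, occurred in Gata2, Gata3, Elf5 and Nfat5, 4 of 9 against 16.7%. CAACATT, for miR-409-3p, occurred in Aqp4 and Gata2, 2 of 9 against 19.4%. These shares depend on transcript length and base composition, and they are descriptions of letters. In the 300-base promoter of Aqp2 (250 bases before to 50 after its start, RefSeq GRCm38.p6), none of the 3 matches occurred on either strand. Over 32851 RefSeq promoters of that length, on either strand, CCCAGCT occurred in 10.1%, ATGGGTG in 3.64% and CAACATT in 2.71%.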
